A study of Macaca mulatta with 30 samples.

Results

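Carbonic anhydrases are zinc enzymes that interconvert carbon dioxide and bicarbonate with release or uptake of a proton. Their family members differ in where they sit. Some are free in the cytosol, some are anchored in the plasma membrane with the active site outside the cell, some are in mitochondria, and CA6 is secreted. CA6 is best known as a protein of saliva made by serous acinar cells of the parotid and submandibular glands, and salivary glands, pancreas and liver all move bicarbonate as part of their normal work. The family also includes related proteins that have lost the zinc site and do not catalyse the reaction.

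In the deposited table of 21292 gene names, 15 carried a carbonic anhydrase symbol (CA followed by a number). The genes described here are the 11 of these whose mean reached 1 TPM in 1 or more of the tissues: CA2, CA3, CA4, CA5A, CA5B, CA6, CA8, CA9, CA11, CA12 and CA14. TPM is a transcript abundance corrected for transcript length and expressed relative to a fixed total per library, so levels of different genes can be set side by side. Membership was decided by the level in the highest tissue. CA5A met the rule only through liver (22.5 TPM, next tissue mean 0.250 TPM) and CA9 only through pancreas (2.48 TPM, next tissue mean 0.638 TPM). Their differences from that tissue are therefore not independent of the rule. All 11 passed the filter on low values used for testing (at least 1 TPM in at least 6 libraries). CA5A passed it only through liver, and CA9 would not have passed without its pancreas libraries. The 4 that missed the rule had their highest tissue means at 0.896 TPM (CA1, pancreas), 0.434 TPM (CA7, pancreas), 0.192 TPM (CA13, sublingual gland) and 0.0407 TPM (CA10, pancreas). The CA1 mean rested on animal 4: without that library its pancreas mean was 0.0749 TPM, below the liver mean of 0.448 TPM. The 3 members closest to the limit had highest means of 2.48 TPM (CA9), 3.46 TPM (CA14) and 4.76 TPM (CA5B).

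RNA was sequenced from frozen pieces of parotid, submandibular gland, sublingual gland, pancreas and liver of 6 rhesus macaques (Macaca mulatta), with 1 library per tissue and animal and 30 libraries in all. Animals 1 to 4 were female and animals 5 and 6 male. The labels name no treatment, genotype or age, and no batch. The parotid piece was from the right gland in animal 3 and from the left in the rest. The series was designed around comparisons of the salivary glands with pancreas and of pancreas with liver within the same animals, and the comparisons between glands and with liver use the same libraries. Comparisons that share a tissue share its 6 libraries and are not independent. In whole tissue pieces, fewer cells of a type and less RNA per cell cannot be told apart.

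Several libraries stood apart from the rest of their tissue in marker genes. Over 12 pancreas acinar markers, the pancreas libraries of 5 animals had medians of 10508 to 33091 TPM and that of animal 4 a median of 299.6 TPM. Over 6 salivary serous markers, 5 submandibular libraries had medians of 19103 to 29116 TPM and that of animal 4 a median of 144 TPM. Those same 2 libraries had adipocyte marker medians of 879 and 687 TPM (8 of 8 markers listed), against at most 71.3 TPM in the other 28. The serous medians of sublingual gland were 1553 to 6996 TPM in 4 animals, 577 TPM in animal 1 and 319.9 TPM in animal 4. Medians of 11 skeletal muscle markers were 8992 TPM in the parotid of animal 6, 787 TPM in the parotid of animal 1, 2478 TPM in the sublingual gland of animal 5 and 979 TPM in that of animal 1, while 26 libraries had medians of 56.6 TPM or less. The pancreas of animal 3 read 127239 TPM of the islet gene INS, against 6281 to 11444 TPM in animals 1, 2, 5 and 6 and 408 TPM in animal 4. Its PRSS1 level was 38260 TPM, against 84555 to 96195 TPM in animals 1, 2, 5 and 6. It also read the highest pancreas values of CA4 (57.9 TPM) and CA11 (19.6 TPM), and the part of islet cells in them was not tested. Means without the pancreas and submandibular libraries of animal 4, the parotid of animal 6 and the sublingual libraries of animals 1 and 5 are given where they change which tissue is highest, and for the order of parotid and sublingual gland in CA12.

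Secreted CA6 was the most abundant carbonic anhydrase in 30 of 30 libraries. Its level in submandibular gland was 10406 ± 5606 TPM (mean ± SD, n = 6), with a lowest value of 148, a median of 11117 and a highest of 15661 TPM. Parotid followed at 4701 ± 2573 TPM (lowest 2358, median 3498, highest 7984), and sublingual gland at 2163 ± 1887 TPM (lowest 157, median 2210.2, highest 4295). Liver stood at 429 ± 45.7 TPM (lowest 363, median 428, highest 494) and pancreas at 315 ± 135 TPM (lowest 185, median 286, highest 568). All 6 parotid values lay above every pancreas and liver value, and the 6 liver values were the tightest of the 5 sets.

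The submandibular set was split by a single library. It read 148 TPM in animal 4, the library low in serous markers, and 9370.4 to 15661 TPM in the other 5, whose mean was 12458 ± 2777 TPM (SD, n = 5). CA6 was highest in the submandibular gland in 5 animals and in the parotid in animal 4. The sublingual set was spread widest relative to its mean. It read 157 TPM in animal 4 and 243 TPM in animal 1, the 2 sublingual libraries lowest in serous markers, 1055 TPM in animal 2 and 3365, 3861 and 4295 TPM in animals 3, 5 and 6. The sublingual libraries of animals 4 and 1 were also lowest in ZG16B, a secreted gene highest in sublingual gland. They read 2016 and 31360 TPM of it, against 143860 to 332616 TPM in the other animals. The part of serous or other secretory cell content in these differences was not tested.

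**Figure D1:**
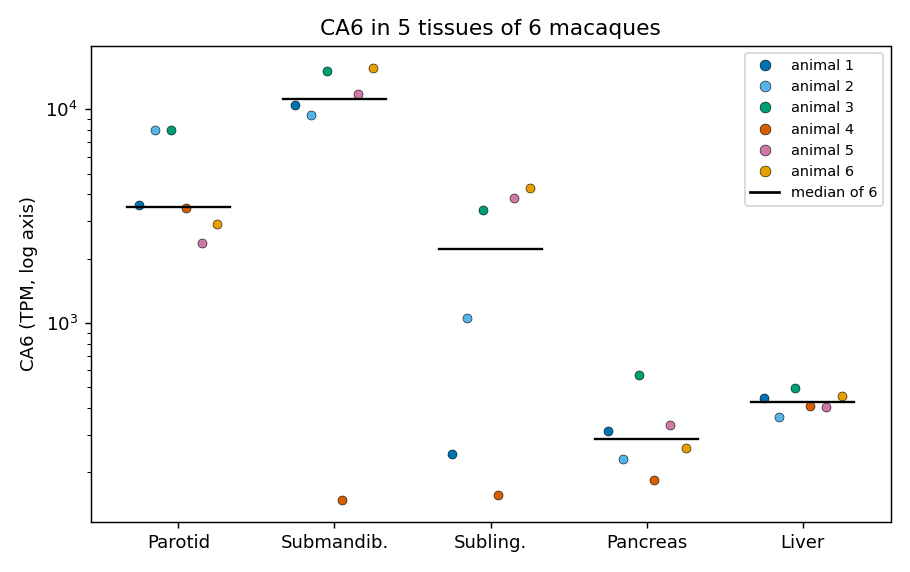
CA6 level in TPM (log axis) in each of the 30 libraries, by tissue, with 1 point per animal and a line at the median of the 6. The 6 parotid points lie above all pancreas and liver points, and in submandibular gland a single point, that of animal 4 at 148 TPM, lies far below the other 5.

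Differences were tested in a model with tissue and animal on log2(TPM + 1), fitted with limma to all 30 libraries, with p-values adjusted over the 13550 genes tested in each comparison and a threshold of 0.05. CA6 was higher in parotid than in pancreas by 3.82 on the log2 scale (SE 0.71, limma adjusted p = 0.00036), in 6 of 6 animals. Against liver the parotid excess was 3.29 (SE 0.71, limma adjusted p = 0.000401), also in 6 of 6 animals. Submandibular gland exceeded pancreas by 4.31 (limma adjusted p = 0.000112) and liver by 3.78 (limma adjusted p = 0.000101), each in 5 of 6 animals, with animal 4 as the exception. These 4 calls held under all 13 alternative settings tried, and without animal 4 the submandibular differences were 5.23 and 4.82.

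The sublingual gland gave less steady results for CA6. Its differences of 1.96 from pancreas (limma adjusted p = 0.0676) and 1.42 from liver (limma adjusted p = 0.136) did not pass, and each had the same sign in 4 of 6 animals. Without the pancreas and submandibular libraries of animal 4 both passed, at 2.04 (limma adjusted p = 0.00744) and 1.42 (limma adjusted p = 0.0324). The difference from liver was 1.42 in both fits, since no sublingual or liver library was left out. Only its estimated spread and the adjustment changed. Parotid exceeded sublingual gland by 1.87 (limma adjusted p = 0.0375) in 4 of 6 animals, a call that was lost when animal 1, 2 or 3 was left out (limma adjusted p = 0.167, 0.130 and 0.0838). Submandibular gland exceeded sublingual gland by 2.35 (limma adjusted p = 0.0162) in 5 of 6 animals, and leaving out animal 1, 2 or 3 ended this call too (limma adjusted p = 0.164, 0.0856 and 0.0630).

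In the order of CA6 levels, submandibular gland and parotid were not separated (difference -0.49 for parotid, limma adjusted p = 1), nor were liver and pancreas (-0.53 for pancreas, limma adjusted p = 0.610). Parotid was the lower of these glands in 5 of 6 animals, and the difference moved to -1.49 without animal 4 and -0.10 without animal 6 (limma adjusted p = 0.404 and 0.980). It was -0.28 without animal 1 and -0.12 without animal 5 (limma adjusted p = 1 each). The fit takes 1 spread per gene over all 5 tissues, so the SE of CA6 was 0.71 in every pair. The SD of the animal differences ran from 0.46 in pancreas against liver to 2.59 in parotid against submandibular gland. Pancreas lay below liver in 5 of 6 animals. That pair was called under 0 of the 13 alternatives, which include a fit to its own 12 libraries, and was -0.05 with trimmed-mean scaling. An exact sign-flip permutation test over the 6 animals, which uses CA6 alone, gave the smallest p that 64 sign patterns allow, 0.03125, for parotid against pancreas and parotid against liver. Adjusted over the 10 tissue pairs both became 0.104, and 0 of 10 pairs passed in this exact test. With a floor of 0.03125, a pair can pass this adjustment only if most of the 10 pairs reach the floor. The result therefore cannot decide on any single pair.

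CA6 was not alone among salivary genes in being listed in liver and pancreas. Its liver mean was 4.12% of its highest tissue mean, and its pancreas mean 3.02%. For SMR3B, a serous proline-rich secretory protein, liver stood at 3573 ± 734 TPM (SD, n = 6), 3.27% of its highest tissue mean. For BPIFA2, a secreted lipid-binding protein of saliva, liver stood at 1808 ± 514 TPM, 2.01% of the highest. The liver shares of CST5, PIP, LPO, ZG16B and SMR3A, other secreted products of salivary glands, were 2.29, 1.92, 1.57, 1.08 and 0.88%. In the reverse direction, the pancreatic enzyme gene PRSS1 was listed at 144 to 976 TPM in liver and the liver gene ALB at 123 to 291 TPM in parotid. The part of RNA or reads shared between libraries in the CA6 values of liver and pancreas was not tested.

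CA6 did not keep a fixed ratio to BPIFA2, the serous gene with which it ran closely. The median CA6 level was 11.4% of BPIFA2 in parotid and 11.8% in submandibular gland, against 19.9% in pancreas, 25.3% in liver and 56.9% in sublingual gland. Within sublingual gland the ratio ran from 24.3 to 252%. These ratios are a description, with no test.

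CA6 also dominated the summed level of the 11 genes. It made up 66.5 to 99.7% of that sum, and more than 95% in 14 of 30 libraries. Ranked among all genes of a library, it stood between places 9 and 43 in parotid and between 21 and 637 in sublingual gland. In submandibular gland it was at places 9 to 14 in 5 animals and at 969 in animal 4. The places were 254 to 386 in liver and 169 to 716 in pancreas. Without CA6, the 10 other members summed to a median of 39.0 TPM in sublingual gland, 46.7 in pancreas, 50.5 in liver, 51.4 in submandibular gland and 55.7 in parotid. The gene in second place differed by tissue: CA5A in 6 of 6 liver libraries, CA4 in 4 pancreas libraries, CA2 in 5 submandibular libraries, CA11 in 5 sublingual libraries, and in parotid CA2 in 3 and CA3 in 2.

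Among the cytosolic enzymes, CA2, a fast and widely expressed form that also supplies bicarbonate in duct cells, was highest in parotid and submandibular gland. Its levels were 28.0 ± 29.9 TPM in parotid (SD, n = 6, lowest 4.02, median 21.0, highest 85.4) and 26.6 ± 18.1 TPM in submandibular gland (lowest 0.663, median 27.6, highest 55.9). Pancreas held 10.2 ± 3.82 TPM, liver 8.29 ± 5.03 TPM and sublingual gland 7.51 ± 4.76 TPM. The sets overlapped in all 10 pairs of tissues. Without the libraries that stand apart, submandibular gland was highest at 31.8 ± 14.4 TPM (SD, n = 5) and parotid stood at 27.7 ± 33.4 TPM (SD, n = 5). As with CA6, the submandibular value of animal 4, at 0.663 TPM, lay below the other 5, which began at 17.3 TPM. CA2 was higher in parotid than in liver (1.21, SE 0.51, limma adjusted p = 0.0443), and higher than in sublingual gland both in parotid (1.42, limma adjusted p = 0.0292) and in submandibular gland (1.40, limma adjusted p = 0.0417), each in 5 of 6 animals. None of these 3 calls held under all 13 alternatives: leaving out animal 1, 2, 3 or 6 ended each of them (limma adjusted p from 0.0595 to 0.200).

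CA3, the slow cytosolic enzyme that is abundant in skeletal muscle, was below 5 TPM in 28 of 30 libraries. It stood at 872 TPM in the parotid of animal 6 and 44.6 TPM in the parotid of animal 1, and the remaining parotid values ran from 0.110 to 0.385 TPM. The parotid mean of 153 ± 353 TPM therefore rested on those libraries. CA3 was called higher in parotid than in liver (2.26, SE 0.90, limma adjusted p = 0.0342), in 6 of 6 animals. Without animal 1 that difference was 1.65 (limma adjusted p = 0.166) and without animal 6 it was 1.22 (limma adjusted p = 0.130).

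The parotid libraries high in CA3 were those high in muscle genes. The 11 muscle markers summed to 60.2 to 102763 TPM over the parotid libraries, against 50.9 to 602 TPM in liver, and 0 of 11 were listed at 0 in any of the 30 libraries. Over the 30 libraries, log2(TPM + 1) of CA3 correlated with the muscle marker median at Pearson r = 0.81, as a description across libraries that share animals. The sublingual libraries of animals 5 and 1, with muscle medians of 2478 and 979 TPM, read 2.38 and 4.77 TPM of CA3, far less than the parotid of animal 1 with a muscle median of 787 TPM. The part of muscle in the CA3 call was not tested beyond leaving out the parotid of animal 6 and the sublingual libraries of animals 1 and 5, which brought it to 1.08 (limma adjusted p = 0.138).

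**Figure D2:**
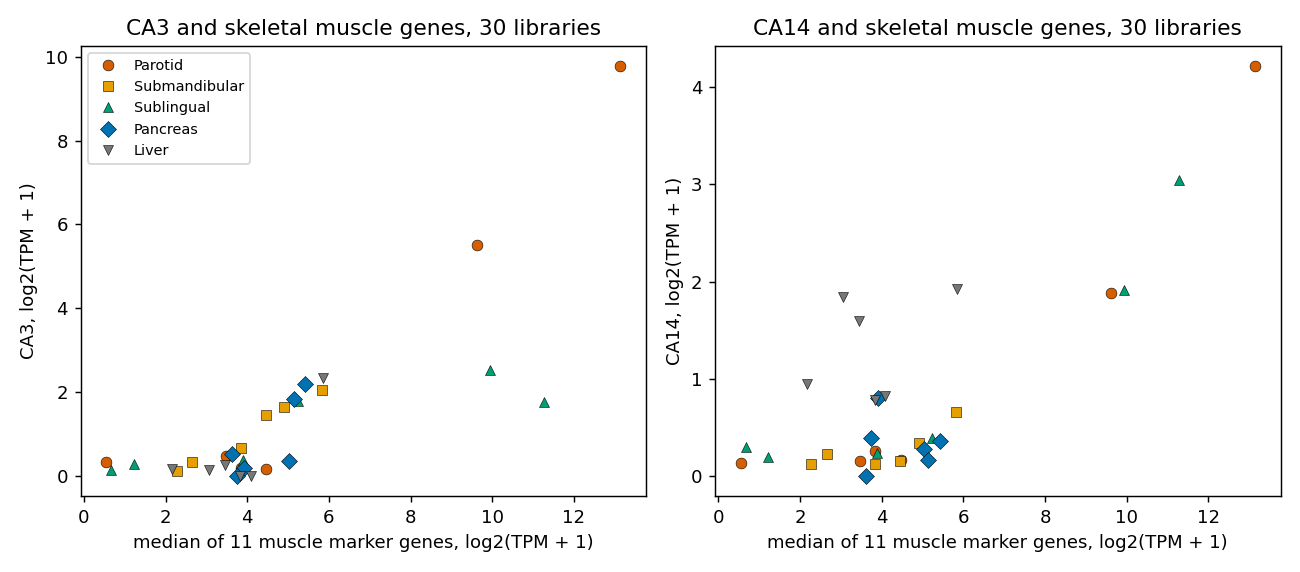
CA3 and CA14 levels against the median of 11 skeletal muscle markers in the 30 libraries, each axis as log2(TPM + 1), with points coloured by tissue. The parotid of animal 6 is highest in muscle markers and in both genes, and the sublingual library of animal 5 is high in CA14 but reads 2.38 TPM of CA3.

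Among the membrane enzymes, CA4, which is anchored by a lipid to the outer face of the plasma membrane, was highest in pancreas. Pancreas held 25.1 ± 19.0 TPM (SD, n = 6, lowest 5.74, median 22.7, highest 57.9). The lowest of these values was that of animal 4 and the highest that of animal 3, the pancreas library highest in INS. Sublingual gland held 4.90 ± 3.63 TPM (lowest 1.02, median 3.27, highest 9.52), parotid 2.49 ± 0.898 TPM, submandibular gland 2.29 ± 0.962 TPM and liver 2.12 ± 0.902 TPM. Pancreas lay above every parotid, submandibular and liver value and overlapped only the sublingual set. CA4 was lower than in pancreas in each gland, with log2 differences of -2.59 in parotid (limma adjusted p = 4.90e-06), -2.69 in submandibular gland (limma adjusted p = 4.02e-06) and -2.03 in sublingual gland (limma adjusted p = 0.000105). Pancreas exceeded liver by 2.77 (limma adjusted p = 3.36e-07). The standard error of each was 0.34, each had the same sign in 6 of 6 animals, and all 4 calls held under the 13 alternatives.

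CA9, a transmembrane enzyme known as a target of the hypoxia response, was also highest in pancreas but at a low level. It stood at 2.48 ± 0.913 TPM in pancreas (SD, n = 6, lowest 1.32, median 2.23, highest 4.04), 0.638 ± 0.342 TPM in liver, 0.499 ± 0.170 TPM in sublingual gland, 0.343 ± 0.661 TPM in submandibular gland and 0.128 ± 0.122 TPM in parotid. Every pancreas value lay above all values of parotid, sublingual gland and liver. In submandibular gland, animal 4 read 1.68 TPM and overlapped the pancreas set, while the other 5 read at most 0.246 TPM and 2 were listed at 0. The log2 differences from pancreas were -1.59 in parotid (limma adjusted p = 2.54e-06), -1.44 in submandibular gland (limma adjusted p = 1.47e-05) and -1.18 in sublingual gland (limma adjusted p = 0.000115), and pancreas exceeded liver by 1.08 (limma adjusted p = 0.000146), with an SE of 0.20 and the same sign in 6 of 6 animals each time. Without its pancreas libraries CA9 would have missed both the rule and the filter on low values. Its differences from pancreas are therefore not independent of that choice. CA9 was also lower in parotid than in liver (-0.52, limma adjusted p = 0.0310), but this call ended when animal 1, 2 or 3 was left out (limma adjusted p = 0.0640, 0.121 and 0.133). It ended with trimmed-mean scaling too (limma adjusted p = 0.220).

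CA12, another transmembrane enzyme, known from duct and other fluid-moving epithelia, was highest in submandibular gland. Its level there was 14.2 ± 8.47 TPM (SD, n = 6, lowest 7.0, median 11.9, highest 30.7), with the highest value in animal 4, and 7.0 to 14.5 TPM in the other 5. Sublingual gland held 5.95 ± 5.30 TPM (lowest 0.637, median 5.04, highest 15.4), parotid 3.74 ± 2.70 TPM (lowest 0.701, median 3.41, highest 7.33), pancreas 1.39 ± 1.73 TPM and liver 0.582 ± 0.237 TPM. Without the parotid of animal 6 and the sublingual libraries of animals 1 and 5, parotid stood at 4.24 ± 2.70 TPM (SD, n = 5), above sublingual gland at 3.16 ± 2.41 TPM (SD, n = 4). All 6 submandibular values lay above all pancreas and liver values. Of the pancreas values, 5 lay between 0.304 and 1.57 TPM and that of animal 4 was 4.81 TPM.

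CA12 in submandibular gland exceeded pancreas by 2.75 (SE 0.43, limma adjusted p = 6.01e-05) and liver by 3.14 (limma adjusted p = 1.35e-06), in 6 of 6 animals each. Parotid exceeded liver by 1.37 (limma adjusted p = 0.00891) in 6 of 6 animals. These 3 calls held under all 13 alternatives. The other 3 did not. Sublingual gland exceeded pancreas by 1.39 (limma adjusted p = 0.0287), but not without animal 1, 2 or 5 (limma adjusted p = 0.254, 0.142 and 0.127). Submandibular gland exceeded sublingual gland by 1.36 (limma adjusted p = 0.0214), but not without animal 2, 3 or 6 (limma adjusted p = 0.0698, 0.119 and 0.0869). Sublingual gland exceeded liver by 1.78 (limma adjusted p = 0.00191), and by 1.07 (limma adjusted p = 0.0518) without the parotid of animal 6 and the sublingual libraries of animals 1 and 5. Parotid lay below submandibular gland in 6 of 6 animals, by a difference of -1.76 that did not pass (limma adjusted p = 0.0842).

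CA14, the remaining transmembrane enzyme, passed in 0 of 10 pairs in limma. Its highest values were 17.6 TPM in the parotid of animal 6 and 7.26 TPM in the sublingual gland of animal 5, the libraries with the highest muscle medians. The parotid and sublingual libraries of animal 1 came next in those glands, at 2.68 and 2.78 TPM. Outside those 4 libraries the parotid values were at most 0.192 TPM and the sublingual values at most 0.311 TPM. The parotid mean was 3.46 TPM over 6 libraries and 0.640 TPM without animal 6, below the liver mean. Its correlation with the muscle marker median was r = 0.79 over 30 libraries, as a description, and the part of muscle was not tested. Liver held 1.63 ± 0.947 TPM (SD, n = 6, lowest 0.711, median 1.47, highest 2.80) without such muscle values, and all 6 liver values lay above all 6 submandibular values (0.215 ± 0.187 TPM). The difference of -1.05 for submandibular gland against liver missed the threshold (SE 0.51, limma adjusted p = 0.0853). Under 4 of the 13 alternatives submandibular gland was called lower than liver. Pancreas was called lower than liver under 2 of them, and parotid and sublingual gland under 1 each.

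The mitochondrial enzymes CA5A and CA5B had unlike patterns. CA5A, which supplies bicarbonate to liver mitochondria for urea and glucose synthesis, was a liver gene in these data. Liver held 22.5 ± 5.21 TPM (SD, n = 6, lowest 16.1, median 23.0, highest 28.3), and the 24 libraries of the other tissues held at most 0.503 TPM. The log2 differences from liver were -4.31 in pancreas (limma adjusted p = 9.98e-18), -4.34 in parotid (limma adjusted p = 5.18e-18), -4.31 in submandibular gland (limma adjusted p = 6.08e-18) and -4.21 in sublingual gland (limma adjusted p = 1.17e-17), with an SE of 0.16 and 6 of 6 animals each. Because of the pseudocount of 1, these log2 differences understate the ratio of the means, which was 90.2-fold for liver over sublingual gland and 167-fold for liver over parotid. All 4 calls held under the 13 alternatives. CA5A met the rule and passed the filter on low values only through its liver libraries. Its differences from liver are therefore not independent of that choice.

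CA5B, the mitochondrial form with wider expression, was low apart from a single library. Parotid held 0.938 ± 0.405 TPM, liver 1.33 ± 0.527 TPM, pancreas 1.97 ± 1.18 TPM and sublingual gland 2.36 ± 1.15 TPM (SD, n = 6 each). In submandibular gland animal 4 read 24.3 TPM and the other 5 read 0.493 to 1.00 TPM, so the mean was 4.76 ± 9.57 TPM with it and 0.850 ± 0.204 TPM without it, the highest and the lowest of the tissue means. CA5B passed in 0 of 10 pairs in limma. Under 2 of the 13 alternatives each, parotid and submandibular gland were called lower than sublingual gland. Under 1 alternative, submandibular gland was called higher than liver. The pancreas library of animal 4, which shared the high adipocyte and low acinar markers, also read the most CA5B of its tissue, at 4.11 TPM against 0.957 to 2.45 TPM. Adipocyte markers summed to 19793 TPM in that pancreas library and 9292 TPM in that submandibular library, with at most 1902 TPM in the other 28. Red blood cell markers summed to 13964 and 10912 TPM in the same libraries, with at most 3677 TPM elsewhere, and endothelium markers had medians of 75.7 and 50.8 TPM there and at most 8.63 TPM elsewhere. The part of these cell types in the CA5B values was not tested.

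CA8 and CA11, the members of the family without carbonic anhydrase activity, differed from each other as well. CA8, which binds an intracellular calcium-release receptor, was highest in liver at 10.2 ± 5.29 TPM (SD, n = 6, lowest 4.74, median 9.71, highest 16.4). All other tissues lay below every liver value: parotid held 0.793 ± 0.469 TPM, pancreas 1.64 ± 0.756 TPM, sublingual gland 1.69 ± 1.27 TPM and submandibular gland 2.07 ± 1.38 TPM. The log2 differences from liver were -2.53 in parotid (limma adjusted p = 4.92e-07), -2.04 in sublingual gland (limma adjusted p = 1.66e-05), -1.99 in pancreas (limma adjusted p = 2.71e-05) and -1.83 in submandibular gland (limma adjusted p = 5.86e-05), with an SE of 0.33 and 6 of 6 animals each. All 4 held under the 13 alternatives.

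CA11, a related protein of brain and other tissues whose role is little known, was the most even of the members, with 2.57-fold between its highest and lowest tissue means. Sublingual gland held 13.8 ± 4.88 TPM (SD, n = 6, lowest 5.73, median 14.5, highest 20.5), pancreas 11.2 ± 4.75 TPM, liver 6.31 ± 2.10 TPM, submandibular gland 5.53 ± 1.96 TPM and parotid 5.37 ± 1.48 TPM. Its sets overlapped in all 10 pairs. CA11 was lower in parotid and in submandibular gland than in sublingual gland (-1.17, limma adjusted p = 0.00288, and -1.15, limma adjusted p = 0.00510) and higher in sublingual gland than in liver (0.98, limma adjusted p = 0.00874). It was lower in parotid than in pancreas (-0.88, limma adjusted p = 0.0359). These 4 calls depended on the scaling or on single animals. With the libraries rescaled by trimmed means, the differences of parotid and submandibular gland from sublingual gland became -0.28 and -0.38 and that of parotid from pancreas -0.30, none past the threshold in limma (adjusted p = 0.376, 0.227 and 0.383). The sublingual excess over liver ended without animal 2 or 5 (limma adjusted p = 0.0652 and 0.0617), the submandibular difference from sublingual gland ended without animal 2 (limma adjusted p = 0.0527), and the parotid difference from pancreas ended without animal 1, 2, 3 or 5 (limma adjusted p = 0.0602, 0.0890, 0.224 and 0.138).

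**Figure D3:**
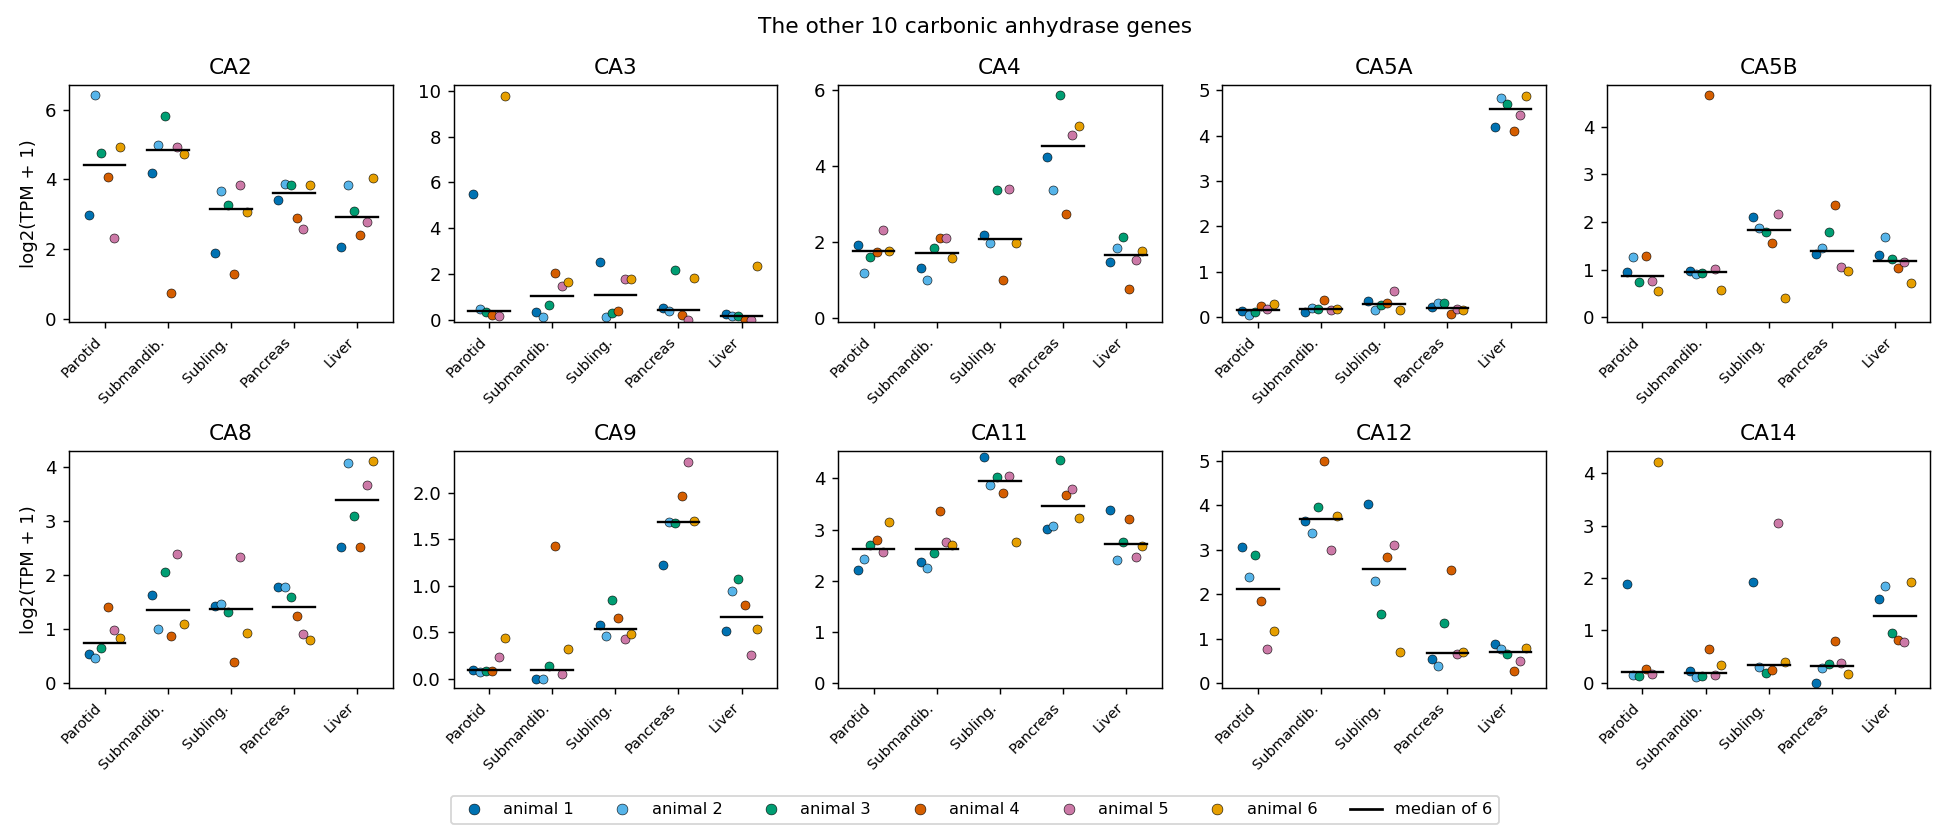
Levels of the 10 members other than CA6 in the 30 libraries, as log2(TPM + 1), with 1 panel per gene, 1 point per animal and a line at the median of the 6 libraries of a tissue. CA5A and CA8 are highest in liver, CA4 and CA9 in pancreas and CA12 in submandibular gland, and CA3 has its 2 highest points in parotid.

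Counted by comparison, 4 of the 11 members passed the limma test in parotid against pancreas, where 15.8% of all genes tested passed. Of these, 1 was higher in parotid (2.24% of all genes) and 3 were lower (13.6%). In submandibular gland against pancreas 4 passed, beside 9.71% of all genes, with 2 higher (2.25%) and 2 lower (7.46%). In sublingual gland against pancreas 3 passed, beside 13.9%, with 1 higher (10.4%) and 2 lower (3.51%). Pancreas against liver gave 4, beside 30.4%, with 2 higher (6.76%) and 2 lower (23.6%). Those counts are 36.4, 36.4, 27.3 and 36.4% of a set so small that a single gene moves the share widely.

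The glands were compared with liver in the same fit. Parotid against liver gave 7 of 11 members, beside 58% of all genes, with 4 higher in parotid (4.61%) and 3 lower (53.4%). Submandibular gland against liver gave 4, beside 50.7%, with 2 higher (5.68%) and 2 lower (45.1%). Sublingual gland against liver gave 4, beside 31.5%, with 2 higher (12.8%) and 2 lower (18.7%). The members' shares in these 3 comparisons, 63.6, 36.4 and 36.4%, lay close to or below those of all genes.

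Between glands, 0 of 11 passed in parotid against submandibular gland in limma, with 2 at an unadjusted p below 0.05, beside 0.347% of all genes (0.133% higher in parotid, 0.214% lower). Parotid against sublingual gland gave 3, beside 41.5%, with 2 higher in parotid (0.893%) and 1 lower (40.6%). Submandibular against sublingual gland gave 4, beside 27.9%, with 3 higher in submandibular gland (0.753%) and 1 lower (27.2%).

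The median log2 difference over the 11 members was 0.16 for sublingual gland, 0.02 for submandibular gland and -0.03 for parotid against pancreas, where the medians of all 13550 genes were 0.23, -0.33 and -0.48. Against liver it was -0.18 in parotid, 0.08 in submandibular gland, 0.46 in sublingual gland and 0.37 in pancreas, beside -0.84, -0.70, -0.10 and -0.36 for all genes. Between glands it was -0.03 in parotid against submandibular gland, -0.41 in parotid against sublingual gland and -0.10 in submandibular against sublingual gland, beside -0.13, -0.70 and -0.56 for all genes. TPM are shares of a fixed total, and after rescaling by trimmed means the medians of all genes lay between -0.04 and 0.01 in the 10 comparisons. Of the 110 member differences, 18 changed sign on rescaling, and 0 of those 18 had been called before it.

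The ranges of the tissues did not overlap for 3 members in parotid against pancreas (11.6% of all genes), 2 in submandibular gland against pancreas (2.89%), 1 in sublingual gland against pancreas (3.9%) and 4 in pancreas against liver (15.6%). Against liver they did not overlap for 3 members in parotid (40.7% of all genes), 4 in submandibular gland (15%) and 2 in sublingual gland (19.4%). Between the glands 0 members were free of overlap in all 3 pairs, beside 0.945, 15.5 and 2.27% of all genes. Over all pairs, 37 of 110 member tests were called, and 23 of the 37 were called in the same direction under every one of the 13 alternatives. CA5A and CA9, which met the rule in 1 tissue alone, gave 4 and 5 of the 37 calls. They also gave 4 and 3 of the pairs free of overlap.

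**Figure D4:**
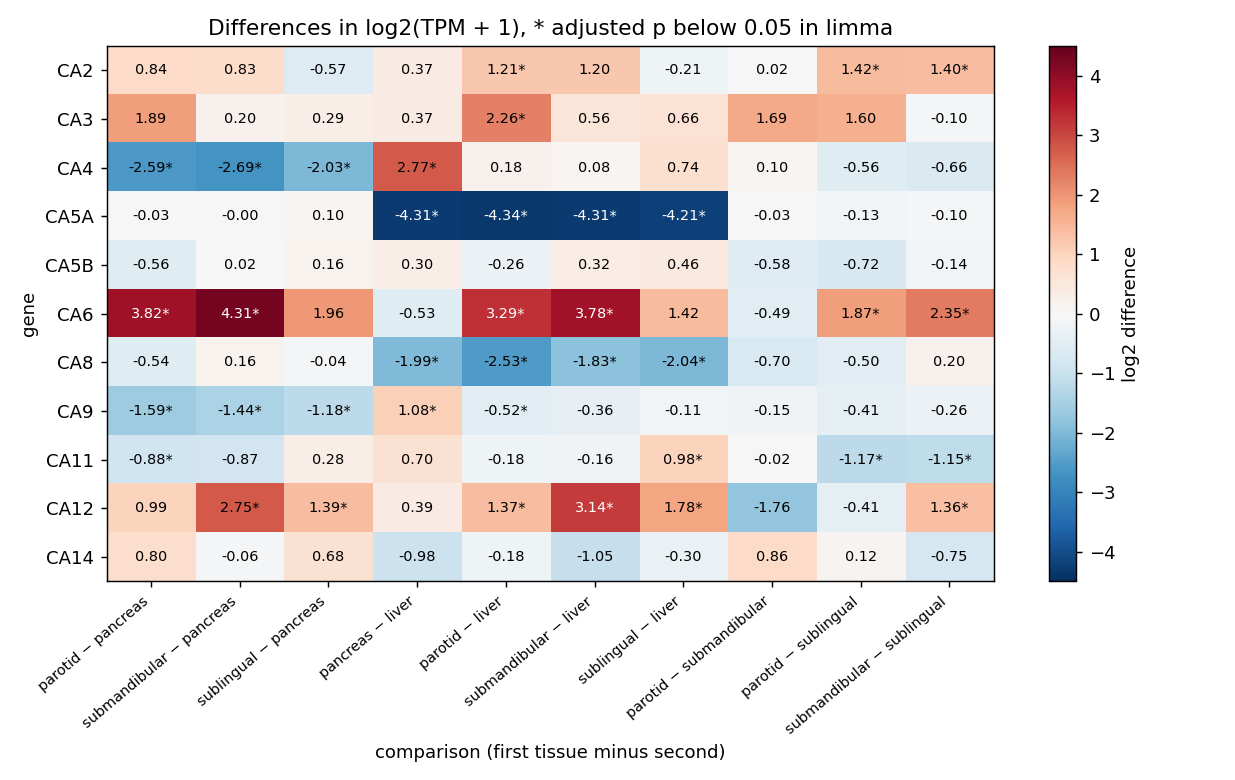
Log2 differences of the 11 members in the 10 tissue pairs from the limma fit, coloured by size and direction, with an asterisk where the adjusted p is below 0.05. CA5A and CA8 are marked in all 4 comparisons with liver and CA4 in all 4 with pancreas, while CA5B and CA14 carry no mark.

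Pearson correlation of log2(TPM + 1) over the 30 libraries was used to name the genes whose pattern was most like that of each member, as a description of libraries that share tissues and animals. For CA6 these were PRR27 (r = 0.94), DNASE2B (0.93), MRO (0.93), LMX1B (0.92) and BPIFA2 (0.91). After each tissue's mean was subtracted, the closest were LRRC26 (0.94), FOLR1 (0.92), AQP5 (0.90), PIP (0.89) and LMX1B (0.89). AQP5 is the water channel of salivary acinar cells and PIP a secreted salivary protein. For CA2 the closest genes were SMR3B (0.77), BPIFA2 (0.74) and DNER (0.74), so the cytosolic enzyme shared BPIFA2 with CA6, and CA2 and CA6 correlated with each other at 0.71.

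The closest genes of the other members were found in the same way. CA5A ran with CREB3L3 (r = 1.00), CPN1 (0.99) and ABCB11 (0.99), the last being the bile salt export pump of liver. CA3 ran with MYH1 (0.96), MYLK2 (0.94) and UCP3 (0.94), and CA14 with NRAP (0.94), KLHL31 (0.94) and FITM1 (0.92), lists in which MYH1, MYLK2 and NRAP are genes of skeletal muscle fibres. The closest gene was BRSK2 for CA4 (0.91), PPM1H for CA8 (0.90), BCAM for CA9 (0.90), TLE2 for CA11 (0.95), CD44 for CA12 (0.89) and TMEM200B for CA5B (0.93). Among the members themselves, CA5A and CA8 correlated at 0.85, CA3 and CA14 at 0.72, CA4 and CA9 at 0.72, and CA6 and CA9 at -0.73.

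Bicarbonate made by these enzymes leaves or enters cells through exchangers, cotransporters and anion channels, of which 9 of a list of 20 could be tested. In parotid against pancreas 1 of the 9 was higher and 3 were lower, in submandibular gland 2 and 2, and in sublingual gland 3 and 2, while pancreas against liver gave 2 and 2. The shares of all genes called higher in these comparisons were 2.24, 2.25, 10.4 and 6.76%. Those called lower were 13.6, 7.46, 3.51 and 23.6%. The list medians were -0.60, -0.31, 0.31 and 0.02, against -0.48, -0.33, 0.23 and -0.36 over all genes. With trimmed-mean scaling the submandibular median turned to 0.04, and parotid had 3 higher and 3 lower. SLC4A4, the sodium bicarbonate cotransporter that loads bicarbonate into pancreatic duct cells, stood at 6.71 ± 3.72 TPM in pancreas, 1.19 ± 0.383 TPM in liver and 0.0827 ± 0.0437 TPM in parotid (SD, n = 6). It was highest in pancreas, as CA4 was, with log2 differences of -2.58 in parotid (limma adjusted p = 5.05e-07) and -2.46 in sublingual gland (limma adjusted p = 6.16e-07).

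CFTR, the chloride and bicarbonate channel of duct cells, was unlike SLC4A4 in submandibular gland. Pancreas held 4.14 ± 2.28 TPM of it and submandibular gland 3.37 ± 1.74 TPM (SD, n = 6), a difference of -0.20 that did not pass (limma adjusted p = 0.746). Parotid was lower than pancreas by a difference of -1.81 (limma adjusted p = 0.000348). ANO1, the calcium-activated chloride channel of salivary acinar cells, had parotid levels of 15.4 ± 5.84 TPM and pancreas levels of 1.02 ± 0.699 TPM, a difference of 2.99 (limma adjusted p = 9.55e-06). Its liver level was 18.8 ± 5.85 TPM. In sublingual gland the borate and proton transporter family member SLC4A11 was higher than in pancreas by 2.87 (limma adjusted p = 1.58e-05).

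Of the 9 proton export genes tested, 2, 3 and 5 were called higher in parotid, submandibular and sublingual gland than in pancreas and 0 lower. The shares of all genes called higher in these comparisons were 2.24, 2.25 and 10.4%. The list medians were 0.05, 0.05 and 0.87, beside -0.48, -0.33 and 0.23 over all genes. Without the pancreas and submandibular libraries of animal 4 the counts were 3 higher and 1 lower in parotid, 3 and 1 in submandibular gland and 5 and 0 in sublingual gland. Without the muscle-rich libraries they were 3 and 1, 3 and 0, and 3 and 0. ATP6V1B1, a proton pump subunit of acid-secreting and duct cells, exceeded pancreas by 3.66 in sublingual gland (limma adjusted p = 9.83e-07).

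The 9 enzymes that fix bicarbonate or form carbamoyl phosphate from it were all tested. Against liver, 9 were lower in parotid, 7 in sublingual gland, 8 in submandibular gland and 5 in pancreas, and 0 were higher in any. The shares of all genes called lower in these comparisons were 53.4, 18.7, 45.1 and 23.6%. The medians were -2.44, -2.15, -2.27 and -1.65, against -0.84, -0.10, -0.70 and -0.36 over all genes. With trimmed-mean scaling 6, 8, 6 and 5 were lower and still 0 higher. CPS1, which starts the urea cycle in liver mitochondria with bicarbonate as a substrate, stood at 175 ± 119 TPM in liver and 2.04 ± 0.689 TPM in pancreas (SD, n = 6), with a log2 difference of -5.49 for pancreas (limma adjusted p = 2.68e-12). PC, the pyruvate carboxylase of the same compartment, stood at 57.1 ± 6.14 TPM in liver and 12.7 ± 3.34 TPM in parotid (-2.11, limma adjusted p = 0.00173). PC read 129 TPM in the submandibular gland and 115 TPM in the pancreas of animal 4, above every liver library (at most 68.1 TPM).

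A set of 10 hypoxia-responsive genes was followed beside CA9. Over all genes, 6.76% were called higher and 23.6% lower in pancreas than in liver. For parotid, submandibular and sublingual gland against pancreas, 2.24, 2.25 and 10.4% were called higher and 13.6, 7.46 and 3.51% lower. Within the set, pancreas against liver called 2 higher and 0 lower. The gland comparisons with pancreas called 0 higher and 2 lower for parotid, the same counts for submandibular gland, and 2 higher and 2 lower for sublingual gland. With trimmed-mean scaling these became 1 and 2, 2 and 2, and 1 and 2, while pancreas against liver again gave 2 and 0. The list medians were -0.48, -0.28, 0.20 and -0.17, beside -0.48, -0.33, 0.23 and -0.36 over all genes, and their submandibular, sublingual and liver comparisons turned in sign with the scaling (0.16, -0.05 and 0.19). PFKFB4, a regulator of glycolysis, shared the pancreas peak of CA9, at 34.7 ± 21.2 TPM in pancreas, 3.13 ± 0.886 TPM in liver and 1.62 ± 0.386 TPM in parotid (SD, n = 6), with a difference of -3.40 for parotid (limma adjusted p = 2.08e-06). VEGFA, the endothelial growth factor, had pancreas levels of 136 ± 81.7 TPM and liver levels of 163 ± 71.3 TPM, a difference of -0.33 that did not pass (limma adjusted p = 0.571).

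The secreted proteins of saliva were the list to which CA6 belongs by function, with 23 of 34 tested. Over all genes, 2.24, 2.25 and 10.4% were called higher in parotid, submandibular and sublingual gland than in pancreas. Within the list, 8 were higher and 0 lower in parotid against pancreas, 15 and 0 in submandibular gland, and 17 and 0 in sublingual gland. The list medians were 0.73, 3.50 and 3.00, beside -0.48, -0.33 and 0.23 over all genes. Without the pancreas and submandibular libraries of animal 4 the counts were 10 and 1, 16 and 0, and 17 and 1. The list holds known products of salivary glands and was chosen with earlier results of these data known. Its counts are therefore a description and no independent evidence. SMR3B and BPIFA2 were set beside CA6 as products of serous cells. The 6 serous markers did not share 1 order, with 3 called higher and 2 lower in parotid than in sublingual gland in limma. PIP had means of 52102 TPM in sublingual gland and 3170.3 TPM in parotid. LPO had 515 TPM in sublingual gland and 132 TPM in parotid, and SMR3A had 2935 and 79.3 TPM. CST5 had 161 TPM in sublingual gland and 4507 TPM in parotid. In parotid, submandibular and sublingual gland in turn, SMR3B differed from pancreas by 4.97, 4.71 and 0.56 and BPIFA2 by 4.86, 5.12 and 0.51, with the sublingual differences not past the limma threshold. CA6 itself differed by 3.82, 4.31 and 1.96. The mucous gland product BPIFB1 had the opposite order, at 1.83, 1.70 and 6.90, with only the sublingual difference past the threshold.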

How the data were processed

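RNA sequencing of 30 libraries (5 tissues of 6 rhesus macaques) was used as the authors deposited it, as TPM per gene name, a unit corrected for transcript length and scaled to a fixed total per library. The submitters' processing notes name kallisto, HISAT2, featureCounts, DESeq2, cutadapt, FastQC, MultiQC and SAMtools. The transcriptome, genome build and the summing of transcripts to genes are not given in the sources used here, nor is the division of reads among similar family members, so the level of any single member could include reads of a relative. Depth is unknown, since each column sums to the same total, and no interval that needs a depth is given. Unused sample columns numbered 0.

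Rows with a symbol of CA followed by a number were taken if their mean reached 1 TPM in a tissue, 11 of 15, and 15 of 15 symbols were found in RefSeq gene names. The 13550 genes that reached 1 TPM in 6 or more libraries were fitted on log2(TPM + 1) by limma (version 3.58.1, under R 4.3.3), with tissue and animal as terms, trended variances, two-sided p-values adjusted by the Benjamini-Hochberg method and a threshold of 0.05. Each reported adjusted p is over all genes tested. CA6 was also tested by exact two-sided sign flips. The animal numbers pair the samples because they mark the same animal in every tissue, and deviations from tissue means correlated at 0.161 on average between libraries of the same animal and -0.0186 between animals. 0 pairs of libraries held identical values. The fit was tested on simulated data.

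The 13 alternatives were no animal block, only the 12 libraries of a pair, trimmed-mean scaling (30% of log ratios and 5% of levels trimmed), no filter, a pseudocount of 0.1, leaving out each animal, leaving out the pancreas and submandibular libraries of animal 4, and leaving out 3 muscle-rich libraries (parotid of animal 6, sublingual gland of animals 1 and 5). Means without the libraries that stand apart were chosen after seeing the data. Named genes were all members, for each member those with the highest correlation (5 for CA6, 3 or fewer printed for the others), and up to 3 genes per list and comparison with the largest called change, beside known partners. Members and lists were chosen with earlier results of these data known.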

Additional observations from a re-analysis of the deposited data

Results flagged for a closer look

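Within the 6 libraries of a tissue, 7 of 55 sets of member values had a highest or lowest value set apart from the others, where chance gives about 1 in 20 sets (2.75 of 55), and 5 of the 7 were in animal 4, all in its submandibular library. That library read the lowest CA6 (148 TPM, next 9370.4 TPM) and CA2 (0.663 TPM, next 17.3 TPM) and the highest CA5A (0.312 TPM, next 0.163 TPM), CA5B (24.3 TPM, next 1.00 TPM) and CA9 (1.68 TPM, next 0.246 TPM) of its tissue. CA3 in the liver of animal 6 was highest at 4.05 TPM, with the next at 0.188 TPM. CA5B in the sublingual gland of animal 6 was lowest at 0.314 TPM, with the next at 1.93 TPM.

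The 4 females and the 2 males moved in opposite directions, without exception, in 3 of 110 member comparisons, and chance gives 3.44. The differences between the sexes were not tested. For CA6 in parotid against sublingual gland the mean log2 difference was 3.12 in females and -0.64 in males, 3.76 apart. For CA2 in pancreas against liver it was 0.66 in females and -0.21 in males, 0.86 apart. For CA8 in sublingual gland against pancreas it was -0.45 in females and 0.77 in males, -1.23 apart. The sublingual libraries of animals 1 and 4, both female, were the lowest in serous markers and read 243 and 157 TPM of CA6. The part of their cell content in the CA6 gap was not tested.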

How the results depend on the processing

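With trimmed-mean scaling, CA11 turned from -0.18 to 0.79 in parotid against liver and from -0.16 to 0.70 in submandibular gland against liver, both then past the limma threshold (adjusted p = 0.00344 and 0.00828). The same scaling gave 8 members called in submandibular gland against liver and 1 in parotid against submandibular gland. Leaving out the pancreas and submandibular libraries of animal 4 brought CA6 past the limma threshold in sublingual gland against pancreas (2.04, adjusted p = 0.00744) and against liver (1.42, adjusted p = 0.0324), and gave 7 members in submandibular gland against liver, 5 in parotid against sublingual gland and 7 in submandibular against sublingual gland. CA6 in parotid against sublingual gland lost its call in limma without the animal block (1.87, adjusted p = 0.0765), with only the libraries of the pair (1.87, adjusted p = 0.0582), with no filter (1.87, adjusted p = 0.0621) and without the muscle-rich libraries (1.97, adjusted p = 0.0740), which also ended the call in submandibular against sublingual gland (2.20, adjusted p = 0.0578). Members called became 1 in parotid against sublingual gland without the replicate block, and 1 (pair only) or 2 (without the muscle-rich libraries) in submandibular against sublingual gland. Without the block, the exact permutation test of CA6 between unpaired groups passed for parotid (3.82 and 3.29, adjusted p = 0.0108) and submandibular gland (4.31 and 3.78, adjusted p = 0.0379) against pancreas and liver. Leaving out each animal in turn moved CA6 between 1.35 and 2.38 in parotid against sublingual gland, 1.06 and 1.98 in sublingual gland against liver, 1.54 and 2.42 in sublingual gland against pancreas, and 1.74 and 2.84 in submandibular against sublingual gland. Members called then ran from 4 to 7 in parotid against liver, 1 to 6 in parotid against sublingual gland and 0 to 7 in submandibular against sublingual gland. Where the CA6 difference stayed at 1.42 or 1.87, the setting changed only its estimated spread or the adjustment. The causes of the other changes were not tested. The numbers of all genes called moved widely, for example from 47 to between 0 and 99 in parotid against submandibular gland and from 3787 to between 666 and 9035 in submandibular against sublingual gland, and scaling moved the share higher in the first tissue from 7.94 to 42.2% in parotid against liver. TPM carry no depth, so which low values are beyond the reach of sequencing is unknown.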
